A study of Mus musculus with 16 samples.

Results

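A group of 8 genes of ion channels known from macrophages and microglia was followed across the 4 sorted populations of a mouse study of brain ischemia: the potassium channel genes Kcnk6, Kcnk13, Kcna3, Kcnj2 and Kcnn4, the proton channel gene Hvcn1, and the transient receptor potential (TRP) channel genes Trpm2 and Trpv2. They were chosen by name, 8 of the 50600 genes in the deposited count table, and all 8 passed the filter on low counts that left 16345 genes for testing. Bulk RNA sequencing covered 16 libraries, 4 per group, from male mice aged 13 to 14 weeks. Control microglia and ischemic microglia were CX3CR1+ cells of the control brain and of the ipsilateral ischemic hemisphere of CX3CR1CreERT2:Rosa26-tdT mice, in which an inducible Cre driven by the Cx3cr1 promoter switches on a red fluorescent reporter. Brain CD11c cells and spleen CD11c cells were eYFP+ cells of the ischemic hemisphere and of the spleen of Tg(Itgax-Venus)1Mnz mice, in which the promoter of Itgax, the gene of the integrin subunit CD11c, drives a yellow fluorescent protein. Microglia and CD11c cells thus differed in mouse line as well as in population, and the effects of the 2 cannot be told apart. The sources used here do not give the time after ischemia, the disease state of the spleen donors or which libraries of a group are from different animals, and p-values therefore reflect only the spread between these libraries.

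Potassium channels set the membrane potential of microglia and other macrophages, and with it the driving force for calcium entry. Kcnk13 encodes THIK1, a two-pore-domain channel that carries the resting potassium current of microglia and is known for its part in process surveillance. Kcnk6 encodes TWIK2, of the same family, known for the potassium efflux that follows the opening of the ATP receptor P2X7 and precedes NLRP3 inflammasome activation. Kcnj2 encodes the inward rectifier Kir2.1, Kcna3 the voltage-gated channel Kv1.3 of reactive microglia and T cells, and Kcnn4 the calcium-activated channel KCa3.1 of lymphocytes and myeloid cells. Hvcn1 encodes the voltage-gated proton channel Hv1, which carries out the protons that the NADPH oxidase leaves behind. Trpm2 encodes a calcium-permeable channel opened by ADP-ribose under oxidative stress, and Trpv2 a calcium-permeable channel of macrophages.

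Each library held 31569304 to 48245164 counts, and levels are given as counts per 1000000 counts (CPM) scaled by the trimmed mean of M-values (TMM). Levels are printed as mean ± SD of 4 libraries and log2 fold changes with ± SE, and library values are in the order of replicates 1 to 4. The 7 microglia markers (P2ry12, Tmem119, Sall1, Siglech, Fcrls, Gpr34 and Olfml3) summed to 16450 to 19810 CPM in control microglia, 9556 to 14990 in ischemic microglia, 3721 to 4868 in brain CD11c cells and 78.4 to 127 in spleen CD11c cells. Brain CD11c cells therefore carried microglia transcripts as well, and none of the 7 was at 0 in them. Markers of conventional dendritic cells (8 genes) summed to 532 to 707 CPM in the 8 microglia libraries, 1151 to 2225 in brain and 1018 to 1811 in spleen CD11c cells, and monocyte markers (6 genes) to 128 to 247.8, 1077 to 1731 and 519.8 to 604.6 CPM. The dendritic cell list includes Itgax, whose promoter drives the sorted reporter, so its sums are not independent of the sorting. Itgax gave 477.8 to 954.3 CPM in brain and 346.7 to 742.5 in spleen CD11c cells. Irf8, of the same list, gave 423.4 to 615.4 CPM in microglia and 288 to 426.8 in CD11c cells. B cell markers (8 genes) summed to 2629 to 3497 CPM in spleen CD11c cells and to 15.2 to 23.9 in the other groups. The spleen libraries also had the highest sums of red pulp macrophage markers (5 genes; 3507 to 5169 CPM against 252 to 829 in the other groups) and of neutrophil markers (6 genes; 198.7 to 871 CPM against at most 5.57). Brain CD11c replicates 1 and 2 stood apart from replicates 3 and 4, whose titles also follow another naming scheme: dendritic cell markers summed to 1151 and 1480 CPM against 2059 and 2225, and border macrophage markers (6 genes) to 726.7 and 588.8 against 184.2 and 206. The border macrophage and monocyte lists share F13a1, which spanned 55.7 to 458.4 CPM in brain CD11c cells, so their sums are not independent. In bulk libraries, fewer cells of a type and less RNA per cell cannot be told apart, and the part of these marker differences in the channel results was not tested. The cell type lists are drawn in the plot of marker sums.

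**Figure D1:**
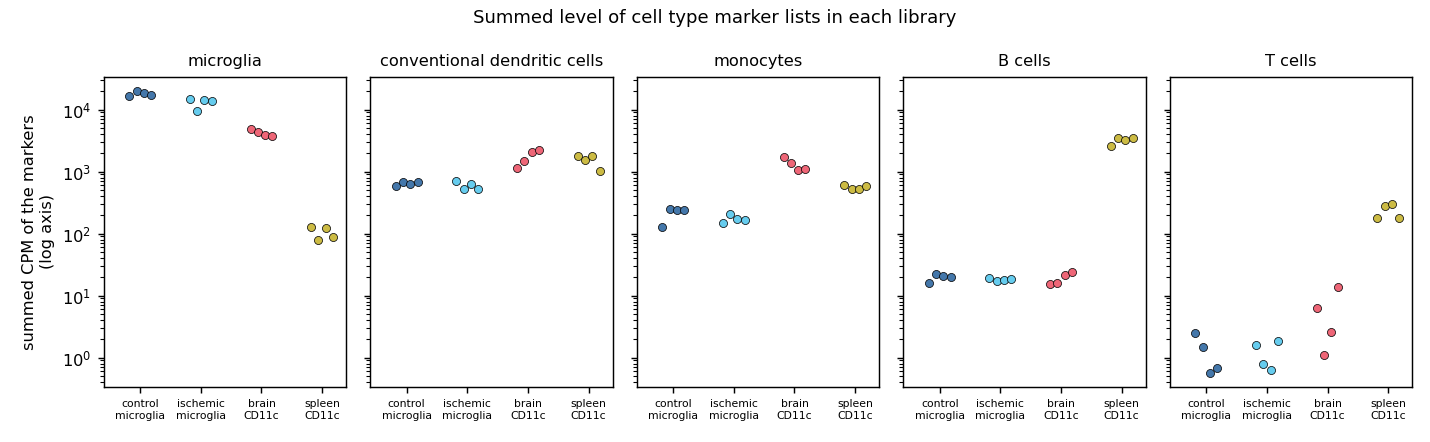
Summed level (CPM, log axis) of 5 lists of cell type markers in each of the 16 libraries (points), by group. Microglia markers lie between 3721 and 4868 CPM in brain CD11c cells, below both microglia groups and above spleen CD11c cells at 78.4 to 127, and B and T cell markers are highest in spleen CD11c cells.

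Among the 8 channel genes, Kcnk6, Kcnk13 and Kcnj2 were highest in microglia, lower in brain CD11c cells and lowest in spleen CD11c cells. Kcnn4 was high in both CD11c groups, at 60.7 to 75.1 CPM on average, and low in microglia, at 3.57 to 4.29 CPM. Kcna3 was lowest in control microglia and rose in ischemic microglia. Hvcn1 was lowest in brain CD11c cells, and Trpv2 had means between 94.0 and 124 CPM in all 4 groups. The values of each library are drawn in the plot of channel gene levels.

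**Figure D2:**
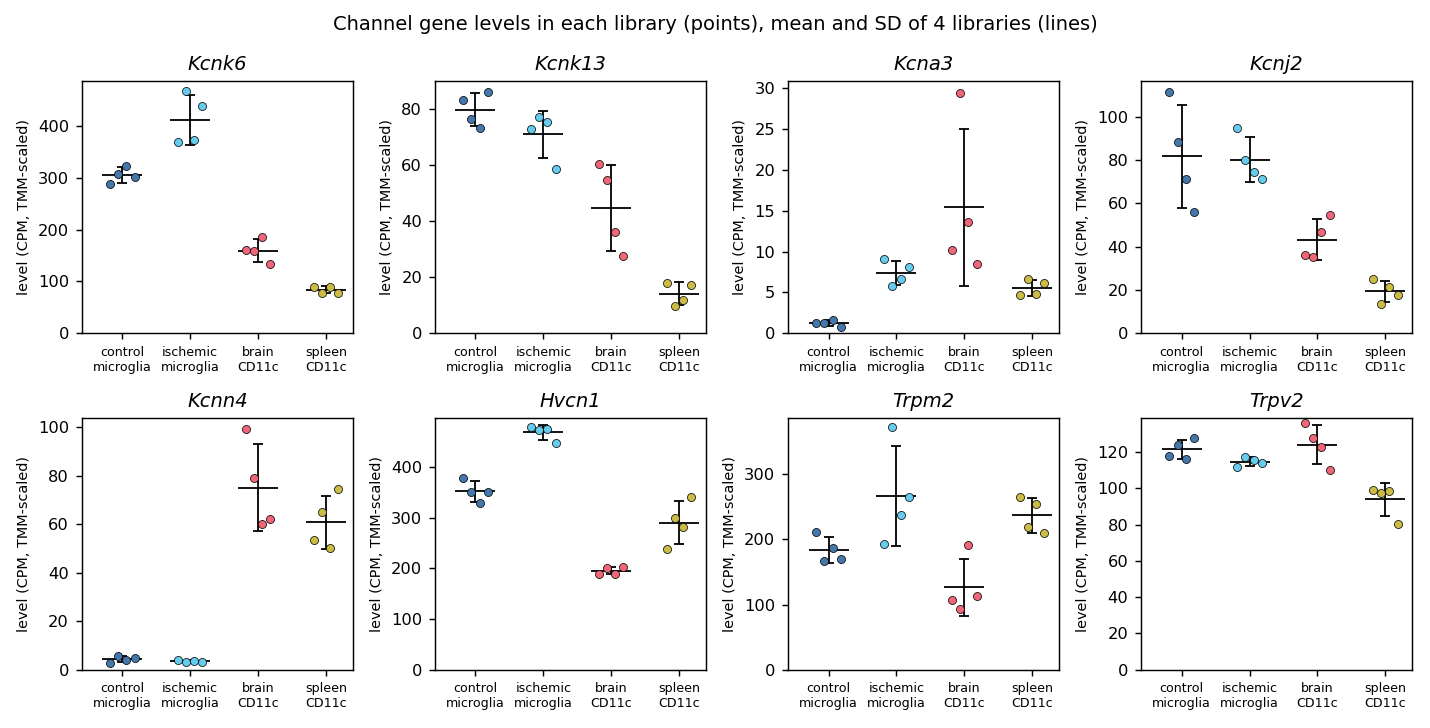
Level (CPM, TMM-scaled, linear axes from 0) of the 8 channel genes in each library (points), with the mean (long line) and SD (bars) of the 4 libraries of each group. Kcnn4 stays at or below 5.76 CPM in the 8 microglia libraries and at or above 50.2 CPM in the 8 CD11c libraries, and Kcnk6 falls from ischemic microglia to spleen CD11c cells.

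Kcnk6 (ENSMUSG00000046410, GRCm38 chromosome 7, 29221926 to 29232515, minus strand, 4 exons) stood at 288, 308, 324 and 302 CPM in control microglia and at 370.3, 468, 373 and 438 CPM in ischemic microglia. All 4 ischemic libraries lay above all 4 control libraries. In brain CD11c cells it stood at 161, 158, 186 and 133 CPM, and in spleen CD11c cells at 88.6, 78.3, 89.9 and 77.3 CPM. No pair of groups overlapped, so that the order was ischemic microglia, control microglia, brain CD11c cells and spleen CD11c cells. Kcnk6 rose in ischemic against control microglia (log2 fold change 0.43 ± 0.11, SE; edgeR quasi-likelihood test, adjusted p = 0.00593 after Benjamini-Hochberg), a call lost when library totals replaced TMM scaling (0.28; edgeR adjusted p = 0.0801). It was lower in brain CD11c cells than in ischemic microglia by 2.59-fold in the means (log2 -1.37 ± 0.11; edgeR adjusted p = 8.86e-08) and higher there than in spleen CD11c cells (log2 0.93 ± 0.11; edgeR adjusted p = 1.80e-06). Of the microglia markers, 7 of 7 were lower in brain CD11c cells than in ischemic microglia and 7 of 7 higher there than in spleen CD11c cells. Of all genes tested, 19.1% were called lower in the first and 31.2% higher in the second of these comparisons. In ischemic against control microglia, where Kcnk6 rose, none of the 7 markers was called higher and 4 were called lower. Over all genes 17.7% were called higher and 18.0% lower there. The part of microglia content in the Kcnk6 levels was not tested.

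Kcnk13 (ENSMUSG00000045404, chromosome 12, 99964499 to 100062682, plus strand, 3 exons) stood at 83.1, 76.6, 73.2 and 86.2 CPM in control microglia and at 72.9, 77.1, 75.3 and 58.6 CPM in ischemic microglia. The 2 groups overlapped and no change was called (log2 -0.17 ± 0.22; edgeR adjusted p = 0.588). Brain CD11c cells had 60.2, 54.7, 36.2 and 27.5 CPM, so that replicate 1 lay within the ischemic microglia range, replicate 2 just below it and replicates 3 and 4 well below. The difference from ischemic microglia (log2 -0.67 ± 0.22; edgeR adjusted p = 0.0254) was lost without any one of ischemic microglia replicates 1, 2 and 3 or brain CD11c replicates 3 and 4 (edgeR adjusted p = 0.0587 to 0.0712), and was -0.31 on the log2 scale without brain CD11c replicates 3 and 4 together (edgeR adjusted p = 0.246) and -1.14 without replicates 1 and 2 together. Across the 15 alternatives its adjusted p ranged from 0.000759 to 0.246. Spleen CD11c cells had 17.8, 9.54, 11.9 and 17.2 CPM, all below the brain CD11c libraries. Kcnk13 was higher in brain than in spleen CD11c cells (log2 1.66 ± 0.23; edgeR adjusted p = 1.05e-05) in each of the 15 alternatives.

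Kcnj2 (ENSMUSG00000041695, chromosome 11, 111066164 to 111076821, plus strand, 2 exons) stood at 112, 88.4, 71.1 and 56.1 CPM in control microglia and at 94.8, 80.2, 74.3 and 71.4 CPM in ischemic microglia. The control libraries spanned the ischemic range, and the fitted difference was close to 0 (log2 -0.03 ± 0.21; edgeR adjusted p = 0.942) and changed sign with the method. It stood at 36.0, 35.0, 46.9 and 54.7 CPM in brain CD11c cells and at 24.8, 13.6, 21.4 and 17.4 CPM in spleen CD11c cells. The brain CD11c libraries lay between the ischemic microglia and the spleen without overlap, and replicates 3 and 4 were the higher ones here, opposite to Kcnk13. Kcnj2 was lower in brain CD11c cells than in ischemic microglia (log2 -0.89 ± 0.21; edgeR adjusted p = 0.00348), a call lost without brain CD11c replicates 1 and 2 together (-0.64; edgeR adjusted p = 0.0582). It was higher in brain than in spleen CD11c cells (log2 1.16 ± 0.22; edgeR adjusted p = 0.000207).

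Promoter sequence was available for 6 of the 8 genes in the RefSeq table for GRCm38.p6. The windows of 250 bases upstream of the start are shown for Kcnk13 and Kcnj2, 2 genes with lower levels in the CD11c groups, and for Kcnn4, which was higher. They are chr12:99964249-99964498 for Kcnk13, chr11:111065914-111066163 for Kcnj2 and chr7:24370013-24370262 for Kcnn4, all on the plus strand. Capitals mark GAGGAA on either strand, the core that the macrophage and microglia transcription factor PU.1 is known to bind.
Kcnk13: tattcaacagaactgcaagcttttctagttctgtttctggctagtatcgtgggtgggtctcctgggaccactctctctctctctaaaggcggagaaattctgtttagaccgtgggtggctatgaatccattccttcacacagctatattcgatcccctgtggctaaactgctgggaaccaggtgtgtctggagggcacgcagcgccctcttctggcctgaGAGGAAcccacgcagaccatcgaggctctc
Kcnj2: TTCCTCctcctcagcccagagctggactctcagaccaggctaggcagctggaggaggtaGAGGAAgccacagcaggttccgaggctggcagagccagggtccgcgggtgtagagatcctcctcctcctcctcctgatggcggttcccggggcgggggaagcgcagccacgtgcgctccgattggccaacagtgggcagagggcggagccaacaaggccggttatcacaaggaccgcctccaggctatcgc
Kcnn4: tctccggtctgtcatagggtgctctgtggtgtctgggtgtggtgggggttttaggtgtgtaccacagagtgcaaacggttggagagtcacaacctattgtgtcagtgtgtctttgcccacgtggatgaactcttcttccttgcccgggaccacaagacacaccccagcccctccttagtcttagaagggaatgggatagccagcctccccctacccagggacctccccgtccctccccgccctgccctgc
The letters occurred once in the Kcnk13 window, 30 bases upstream, 2 times in that of Kcnj2 and not in that of Kcnn4. Among windows not shown, that of Kcna3, higher in brain CD11c cells than in ischemic microglia, held them 2 times. That of Trpm2, lower there, held none. For Trpv2, not called there, 2 of 3 windows held them, but these 2 windows overlap and hold the same single match. They occurred in 23.3% of the 32851 promoter windows of this length, so a match is common and describes letters, not a bound site. The other motif searched, the AP-1 motif TGANTCA on either strand, was in 6.75% of all windows and in none of the windows of the 6 matched genes.

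Kcna3 (ENSMUSG00000047959, chromosome 3, 107036169 to 107038070, plus strand, a single exon) stood low in control microglia, at 1.25, 1.28, 1.65 and 0.693 CPM. Ischemic microglia had 9.10, 5.77, 6.61 and 8.07 CPM, all above the control libraries. It rose 6.07-fold in the means (log2 2.59 ± 0.36; edgeR adjusted p = 5.88e-05), the largest change of the 8 genes in this comparison, and was called in each of the 13 alternatives. Brain CD11c cells had 10.2, 29.5, 13.7 and 8.42 CPM, with replicate 2 far above the others and replicate 4 within the ischemic microglia range. The difference from ischemic microglia (log2 1.06 ± 0.33; edgeR adjusted p = 0.0175) was lost without brain CD11c replicate 2 (0.56; edgeR adjusted p = 0.0995) and without brain CD11c replicates 1 and 2 together (0.60; edgeR adjusted p = 0.112). Spleen CD11c cells had 4.70, 6.65, 4.76 and 6.11 CPM, below all brain CD11c libraries (log2 1.47 ± 0.33 for brain against spleen; edgeR adjusted p = 0.00105). That difference was 0.93 on the log2 scale without brain CD11c replicate 2 and 0.96 without replicates 1 and 2 together, and still called. Kcna3 is also a T cell gene, and T cell markers (8 genes) summed to 0.576 to 2.52 CPM in control microglia, 0.627 to 1.88 in ischemic microglia, 1.12 to 13.7 in brain CD11c cells and 176.8 to 298.7 in spleen CD11c cells. Of the T cell markers none was called between the microglia groups. Natural killer cell markers (6 genes) summed to 0.202 to 0.65 CPM in control microglia and to 4.79, 0.797, 0.941 and 4.47 CPM in ischemic microglia. In this comparison 3 of 6 were called higher, where 17.7% of all genes were called higher and 18.0% lower. Their sum was highest in ischemic replicates 1 and 4, the libraries with the highest Kcna3 of that group. It was 0.728 to 4.15 CPM in brain and 24.2 to 48.0 CPM in spleen CD11c cells. The part of T and natural killer cells in the Kcna3 levels was not tested.

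Kcnn4 (ENSMUSG00000054342, chromosome 7, 24370263 to 24386690, plus strand, 7 exons) stood at 2.87, 5.76, 3.80 and 4.71 CPM in control microglia and at 4.19, 3.29, 3.50 and 3.28 CPM in ischemic microglia. The microglia groups overlapped and no change was called (log2 -0.26 ± 0.21; edgeR adjusted p = 0.354). Brain CD11c cells had 99.0, 79.1, 60.0 and 62.3 CPM, and spleen CD11c cells 53.3, 64.9, 50.2 and 74.3 CPM. Every CD11c library lay above every microglia library, with a 21.1-fold difference in the means between brain CD11c cells and ischemic microglia (log2 4.39 ± 0.23; edgeR adjusted p = 5.06e-10), the largest of the 8 genes. Between brain and spleen CD11c cells Kcnn4 overlapped and was not called (log2 0.31 ± 0.19; edgeR adjusted p = 0.172). With brain CD11c replicates 1 and 2 alone it was called higher in brain (0.56; edgeR adjusted p = 0.0295), and with replicates 3 and 4 alone the difference was -0.03 (edgeR adjusted p = 0.926). Monocyte marker sums were higher in replicates 1 and 2, at 1731 and 1395 CPM against 1077 and 1092. These sums include F13a1, also in the border macrophage list, which alone spanned 55.7 to 458.4 CPM in brain CD11c cells. Lymphocyte markers differed between the CD11c groups. B cell markers summed to 2629 to 3497 CPM in spleen and 15.2 to 23.9 in brain CD11c cells. T cell markers summed to 176.8 to 298.7 CPM in spleen and 1.12 to 13.7 in brain CD11c cells. The part of these cell types in the Kcnn4 levels was not tested.

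Hvcn1 (ENSMUSG00000064267, chromosome 5, 122206804 to 122242297, plus strand, 8 exons) stood at 378, 350.1, 329 and 352 CPM in control microglia and at 479, 473, 475 and 448 CPM in ischemic microglia. The ischemic libraries lay above all control libraries, and Hvcn1 rose (log2 0.41 ± 0.10; edgeR adjusted p = 0.00409), by 0.27 with library totals. It stood at 189, 200.1, 189.7 and 203 CPM in brain CD11c cells and at 238, 300.3, 282 and 341 CPM in spleen CD11c cells. The brain CD11c libraries were the lowest of the 4 groups with a spread of 7.22 CPM (SD, n = 4). Hvcn1 was lower in brain CD11c cells than in ischemic microglia (log2 -1.26 ± 0.10; edgeR adjusted p = 6.78e-08) and than in spleen CD11c cells (log2 -0.57 ± 0.10; edgeR adjusted p = 9.83e-05), where the markers of B cells, which are known to express Hvcn1, summed to 2629 to 3497 CPM. Red pulp macrophage markers summed to 3507 to 5169 CPM there, and the part of both was not tested. Its gene shares 1574 exon bases with Tctn1 on the opposite strand, a gene with means of 17.8 to 22.4 CPM in the 4 groups. The sources used here do not give the strand setting of the counting, so reads of the shared bases cannot be told apart.

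Of the partners of the proton channel in the NADPH oxidase, 5 of 8 genes rose and none fell in ischemic microglia (median log2 0.50, against -0.05 over all genes tested, of which 17.7% were called higher and 18.0% lower). Cybb, the catalytic subunit, rose from 98.8 ± 21.6 to 186 ± 28.2 CPM (log2 0.91 ± 0.16; edgeR adjusted p = 0.000456), and Rac2, a small GTPase of the complex, from 183 ± 12.9 to 307 ± 17.8 CPM (log2 0.74 ± 0.09; edgeR adjusted p = 2.09e-05). In brain CD11c cells against ischemic microglia 2 were higher and 3 lower, or 3 and 1 with library totals (median 0.08, against 0 over all genes, with 19.7% called higher and 19.1% lower). Cybb was higher (log2 1.49 ± 0.16; edgeR adjusted p = 2.40e-06) where Hvcn1 was lower, so that the 2 moved together between the microglia groups and apart in this comparison. Between brain and spleen CD11c cells Cybb was not called (log2 -0.03, edgeR adjusted p = 0.878), where Hvcn1 was lower in brain. Against spleen CD11c cells 5 of 8 were higher and 1 lower in brain CD11c cells (median 0.63, against -0.04 over all genes, with 31.2% called higher and 33.0% lower), among them the cytosolic organizer Ncf1 at 725 ± 47.0 against 227 ± 23.5 CPM (log2 1.67 ± 0.11; edgeR adjusted p = 1.84e-09).

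Trpm2 (ENSMUSG00000009292, chromosome 10, 77907722 to 77970563, minus strand, 36 exons) stood at 212, 167, 187 and 170.0 CPM in control microglia and at 194, 372, 237 and 265 CPM in ischemic microglia. Ischemic replicate 1 lay inside the control range and replicate 2 far above it, and the difference was not called (log2 0.54 ± 0.21; edgeR adjusted p = 0.0570). It was called by DESeq2 (0.55; adjusted p = 0.0384), with only the 2 microglia groups in the fit (0.58; edgeR adjusted p = 0.0231) and without ischemic microglia replicate 1 (0.65; edgeR adjusted p = 0.0306). Ischemic replicate 2 also had the lowest microglia marker sum of its group, 9556 CPM against 13940 to 14990, and the part of this in its Trpm2 level was not tested. Trpm2 stood at 108, 93.2, 191 and 113 CPM in brain CD11c cells and at 265, 219, 255 and 210.4 CPM in spleen CD11c cells. Brain CD11c replicate 3 stood apart from the other 3, and all 4 lay below the ischemic microglia and the spleen libraries. It was lower in brain CD11c cells than in ischemic microglia (log2 -1.08 ± 0.21; edgeR adjusted p = 0.000729) and than in spleen CD11c cells (log2 -0.91 ± 0.21; edgeR adjusted p = 0.00132). Between the CD11c groups 5 of 5 red pulp macrophage markers and 6 of 6 neutrophil markers were also lower in brain, as were 33.0% of all genes. The sums of the 2 marker lists were 252 to 642 against 3507 to 5169 CPM and 0.420 to 5.57 against 198.7 to 871 CPM. The part of these cell types in the Trpm2 difference was not tested.

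Trpv2 (ENSMUSG00000018507, chromosome 11, 62574486 to 62600515, plus strand, 14 exons) varied least between the groups. It stood at 118, 124, 116 and 128 CPM in control microglia, at 112, 117, 116 and 114 CPM in ischemic microglia, at 136, 128, 123 and 110.2 CPM in brain CD11c cells and at 99.4, 97.7, 98.6 and 80.2 CPM in spleen CD11c cells. The first 3 groups overlapped and all spleen libraries lay below them. Neither ischemic against control microglia (log2 -0.08 ± 0.09; edgeR adjusted p = 0.495) nor brain CD11c cells against ischemic microglia (log2 0.11 ± 0.09; edgeR adjusted p = 0.328) was called. The higher level in brain than in spleen CD11c cells (log2 0.40 ± 0.09; edgeR adjusted p = 0.000715) was lost with library totals in place of TMM scaling (0.13; edgeR adjusted p = 0.283).

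Counted over the 8 genes, brain CD11c cells against ischemic microglia had 2 higher (Kcna3 and Kcnn4), 5 lower (Kcnk6, Kcnk13, Kcnj2, Hvcn1 and Trpm2) and 1 not called, with a median log2 fold change of -0.78 against 0 over all genes tested. Of all genes tested, 19.7% were called higher and 19.1% lower there. Between ischemic and control microglia 3 genes were higher (Kcnk6, Kcna3 and Hvcn1), none lower and 5 not called, with a median of 0.19 against -0.05, where 17.7% of all genes were called higher and 18.0% lower. Brain against spleen CD11c cells had 5 higher (Kcnk6, Kcnk13, Kcna3, Kcnj2 and Trpv2), 2 lower (Hvcn1 and Trpm2) and 1 not called, with a median of 0.67 against -0.04, where 31.2% of all genes were called higher and 33.0% lower. These comparisons share the brain CD11c or the ischemic microglia libraries and are not independent of each other. With library totals in place of TMM scaling the median over all genes moved to 0.10, -0.20 and -0.30 in the 3 comparisons, and the share of calls that were higher from 50.7% to 62.4%, from 49.5% to 33.5% and from 48.6% to 34.9%. Without brain CD11c replicates 3 and 4, 6 and 8 of the 8 genes were called against ischemic microglia and spleen CD11c cells, and without replicates 1 and 2, 5 and 7. Over the 15 alternatives, which include these fits, 4654 to 7156 of all genes were called against ischemic microglia and 8953 to 11322 against spleen CD11c cells. The reported fit called 6343 and 10487. The estimates are drawn in the plot of log2 fold changes.

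**Figure D3:**
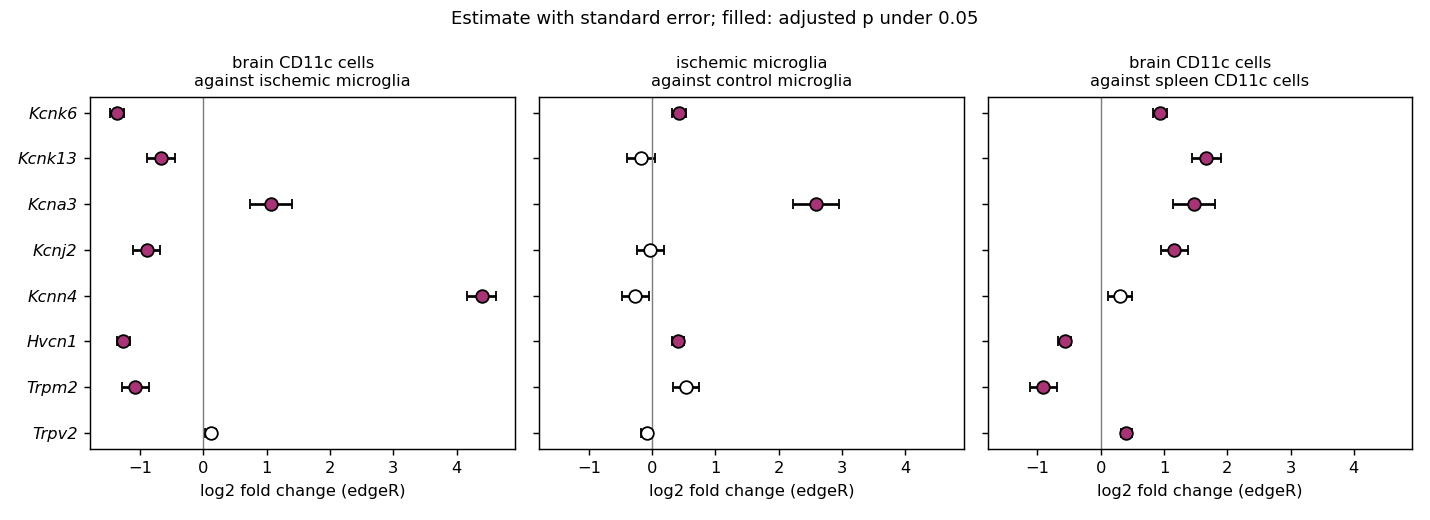
Log2 fold change with its standard error (edgeR) of the 8 channel genes in 3 comparisons. Filled points have an adjusted p under 0.05. Kcnn4 at 4.39 in brain CD11c cells against ischemic microglia and Kcna3 at 2.59 in ischemic against control microglia are the points farthest to the right in their panels.

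The remaining pairs of groups set both CD11c populations beside control microglia, and spleen CD11c cells beside ischemic microglia. In brain CD11c cells 7 of the 8 genes differed from control microglia (58.9% of all genes were called in either direction), with Kcnn4 higher by 4.13 ± 0.22 and Kcna3 by 3.65 ± 0.37 log2 units. Kcnk6 (log2 -0.94), Kcnj2 (-0.92), Hvcn1 (-0.85), Kcnk13 (-0.84) and Trpm2 (-0.54) were lower. Of these, Trpm2 overlapped between the groups (edgeR adjusted p = 0.0361), and its call was lost with only the 2 groups in the fit, without control replicate 1 or 3 or brain replicate 1, 2 or 4 (edgeR adjusted p = 0.0614 to 0.115) and without brain replicates 1 and 2 together (0.339), while without brain replicate 3 its log2 fold change was -0.82 and without replicates 3 and 4 together -0.87. Kcnk13 was not called without brain CD11c replicates 3 and 4 (edgeR adjusted p = 0.0567) and stood at -1.32 without replicates 1 and 2. In spleen CD11c cells 7 of 8 differed from control microglia (68.8% of all genes), with Kcnn4 (3.82) and Kcna3 (2.18) higher and Kcnk13 (-2.50), Kcnj2 (-2.08), Kcnk6 (-1.87), Trpv2 (-0.37) and Hvcn1 (-0.28) lower. The calls of Trpv2 and Hvcn1 were lost with library totals (edgeR adjusted p = 0.253 and 0.634), and that of Hvcn1 also without control microglia replicates 1, 2 or 4 or spleen replicates 1 or 3 (edgeR adjusted p = 0.0549 to 0.105). Against ischemic microglia 6 of 8 differed in spleen CD11c cells (68.5% of all genes): Kcnn4 was higher (4.09), and Kcnk13 (-2.33), Kcnk6 (-2.30), Kcnj2 (-2.05), Hvcn1 (-0.69) and Trpv2 (-0.29) were lower. With library totals Trpv2 there turned to 0.10 and Hvcn1 was -0.32. Trpm2, not called in the spleen against either microglia group, was called higher than in control microglia with library totals (0.60; edgeR adjusted p = 0.0283) and with only the 2 groups (0.30; edgeR adjusted p = 0.0293), and Kcna3 was called lower than in ischemic microglia with only the 2 groups (-0.50; edgeR adjusted p = 0.0338). With library totals the share of calls that were higher moved from 53.9% to 63.9% against control microglia and from 54.3% to 69.3% against ischemic microglia, with medians over all genes of 0.34 and 0.50.

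Levels of different genes were compared per kilobase of exon. In control microglia Hvcn1 (98.8 ± 5.69 CPM per kilobase) and Kcnk6 (73.6 ± 3.56) led, followed by Trpv2 (27.1 ± 1.22) and Kcnk13 (25.6 ± 1.91), then Kcnj2 (15.0 ± 4.39) and Trpm2 (14.8 ± 1.63), with Kcnn4 (0.838 ± 0.242) and Kcna3 (0.640 ± 0.206) last. Within each of the last 3 pairs the difference was smaller than the sum of the SDs. Among the 5 potassium channel genes, Kcnk6 held 63.6% ± 3.49 of the summed level per kilobase in control and 70.1% ± 3.82 in ischemic microglia, against 46.3% ± 5.45 and 46.9% ± 4.39 in the CD11c groups of brain and spleen (SD, n = 4 each). Kcnn4 held 0.725% ± 0.212 and 0.496% ± 0.0836 in the microglia groups, 17.6% ± 3.20 in brain and 27.6% ± 4.79 in spleen CD11c cells. Kcnk13 held 22.2% ± 1.97, 16.2% ± 2.22, 16.9% ± 4.10 and 10.5% ± 2.53 in the same order of groups. The summed level itself was 116 ± 2.52 and 141 ± 10.6 CPM per kilobase in control and ischemic microglia, 83.5 ± 11.2 in brain and 43.0 ± 2.17 in spleen CD11c cells. The shares are drawn in the plot of the potassium channel make-up.

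**Figure D4:**
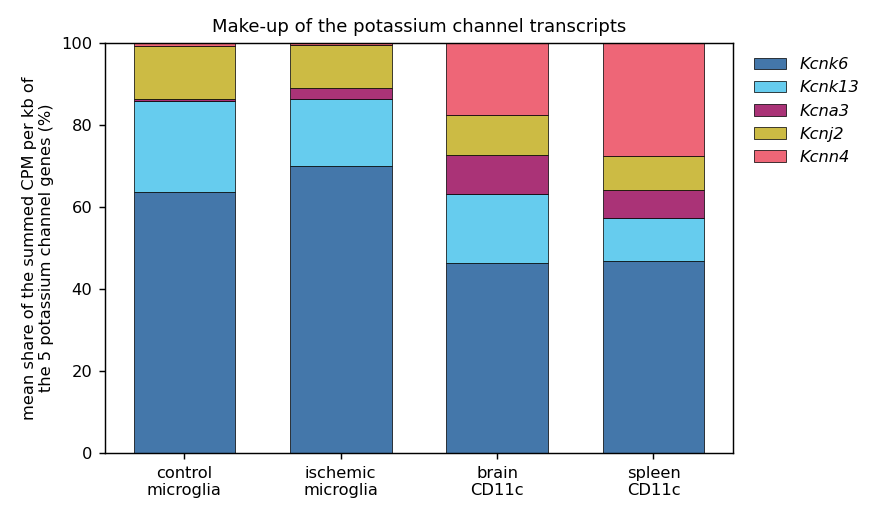
Mean share (percent) of each of the 5 potassium channel genes in their summed CPM per kilobase of exon, by group, with n = 4 libraries each. Kcnk6 is the largest part in every group, and Kcnn4 grows from 0.496% in ischemic microglia to 17.6% in brain and 27.6% in spleen CD11c cells.

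Other potassium channel pore genes were counted from a list of 41, of which 23 were tested. Of all genes, 19.7% were called higher and 19.1% lower in brain CD11c cells against ischemic microglia. The shares were 17.7% and 18.0% in ischemic against control microglia, and 31.2% and 33.0% in brain against spleen CD11c cells. In brain CD11c cells 1 was higher and 8 lower than in ischemic microglia (median log2 -0.59, or -0.39 with groups at 0 set to 3 counts per library, against 0 over all genes), and without brain CD11c replicates 1 and 2, 5 were higher and 7 lower of 28 tested. Among the 8 lower, Kcnc1 and Kcnq5 were at 0 in brain CD11c cells. They averaged only 0.0788 and 0.0657 CPM in ischemic microglia, where 3 counts per library equal 0.0782 CPM, so these calls rest on a few counts. Kcnd1, of an A-type voltage-gated channel, stood at 19.6 ± 8.40 against 62.1 ± 10.3 CPM (log2 -1.66 ± 0.27; edgeR adjusted p = 0.000164). Kcnk12, the closest relative of Kcnk13, fell in ischemic microglia from 12.6 ± 2.89 to 3.60 ± 1.60 CPM (log2 -1.81 ± 0.51; edgeR adjusted p = 0.0119), where Kcnk13 was not called. In that comparison 1 gene rose, the inward rectifier Kcnj10 (log2 0.60 ± 0.18; edgeR adjusted p = 0.0164, lost with library totals at 0.0576), and 5 fell (median -0.46). Against spleen CD11c cells 5 were higher and 12 lower in the brain (median -1.56), among the lower ones Kcnj16 at 0.270 ± 0.119 against 73.9 ± 14.1 CPM and Kcnq5, at 0 in brain and 6.64 ± 1.85 CPM in spleen CD11c cells, at least 75.2-fold lower against a floor of 3 counts per library. Some of the lower ones, such as Kcnq5, Kcnj1 and Kcnq1, averaged at most 0.103 CPM in each group but the spleen. They passed the filter only through the spleen libraries, which fixed their direction. The count of 12 and the median therefore cannot be weighed against the shares over all genes. The spleen libraries also held the markers of B cells, red pulp macrophages and neutrophils, whose part in these levels was not tested. Of 22 auxiliary subunit genes 11 were tested, with 2 higher and 1 lower in brain CD11c cells than in ischemic microglia, none higher and 2 lower in ischemic than in control microglia, and 2 higher and 3 lower in brain than in spleen CD11c cells. The share higher in the first comparison was near the 19.7% of all genes. Their median there was 0.41, and -1.27 without brain CD11c replicates 3 and 4. Kcnab2, a subunit that binds Kv1 channels such as the product of Kcna3, stood at 62.2 ± 26.6 CPM in brain CD11c cells against 11.6 ± 4.38 in ischemic microglia (log2 2.43 ± 0.30; edgeR adjusted p = 1.13e-05).

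Of 26 other TRP channel genes 13 were tested, and 2 were higher and 4 lower in brain CD11c cells than in ischemic microglia, 5 higher and 1 lower in ischemic than in control microglia, and 6 higher and 4 lower in brain than in spleen CD11c cells. Of all genes, 19.7% and 19.1%, 17.7% and 18.0%, and 31.2% and 33.0% were called. Their medians were -0.22 (-0.03 with groups at 0 set to the floor), -0.16 and 0.29, and with library totals the counts between the microglia groups were 3 and 1. Mcoln2, of an endolysosomal channel, rose in ischemic microglia (log2 1.67 ± 0.30; edgeR adjusted p = 0.000435) and was higher again in brain CD11c cells, at 7.12 ± 2.44 against 1.07 ± 0.204 CPM (log2 2.73 ± 0.25; edgeR adjusted p = 3.38e-07). Trpm4, of a calcium-activated cation channel and relative of Trpm2, was lower in brain CD11c cells than in ischemic microglia at 21.4 ± 1.35 against 38.9 ± 2.30 CPM (log2 -0.86 ± 0.08; edgeR adjusted p = 3.37e-07), in the same direction as Trpm2. The 2 genes parted elsewhere. In brain against spleen CD11c cells Trpm4 was higher (log2 1.32, edgeR adjusted p = 7.54e-10) and Trpm2 lower. In ischemic against control microglia Trpm4 fell (log2 -0.38, edgeR adjusted p = 0.00133) and Trpm2 was not called. All 20 genes of calcium entry and release were tested, with 6 higher and 6 lower, 7 higher and 4 lower, and 11 higher and 6 lower in the 3 comparisons (medians 0.07, 0.06 and 0.52), and with library totals 6 and 4, 5 and 5, and 9 and 7. P2rx7, the ATP receptor upstream of Kcnk6, stood at 112 ± 19.3 CPM in brain CD11c cells against 270.3 ± 13.8 in ischemic microglia (log2 -1.27 ± 0.12; edgeR adjusted p = 3.73e-07), next to -1.37 for Kcnk6. In ischemic against control microglia P2rx7 was not called (log2 -0.29; edgeR adjusted p = 0.0622), where Kcnk6 rose by 0.43. Itpr1, of a calcium release channel of the endoplasmic reticulum, was higher in brain CD11c cells than in ischemic microglia (log2 2.64 ± 0.17; edgeR adjusted p = 7.13e-09).

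The list around ADP-ribose, the ligand of the Trpm2 channel, and potassium efflux had 13 genes, all tested, with 2 higher and 5 lower in brain CD11c cells than in ischemic microglia, 4 higher and 1 lower in ischemic than in control microglia, and 6 higher and 3 lower in brain than in spleen CD11c cells (medians -0.04, 0.18 and 0.18). The shares over all genes are those given for the TRP channel list. With library totals the counts were 3 and 3, 2 and 4, and 6 and 4. Cd38 and Bst1, which encode the ectoenzymes that make ADP-ribose and its cyclic form, were higher in brain CD11c cells than in ischemic microglia, where Trpm2 was lower: Cd38 stood at 136 ± 58.8 against 23.2 ± 3.24 CPM (log2 2.56 ± 0.28; edgeR adjusted p = 2.76e-06) and Bst1 at 65.9 ± 29.7 against 8.17 ± 4.04 CPM (log2 3.01 ± 0.39; edgeR adjusted p = 1.74e-05). Against spleen CD11c cells Cd38 was lower in brain (log2 -0.78 ± 0.26, edgeR adjusted p = 0.0167), as was Trpm2. That Cd38 call was lost without brain CD11c replicates 3 and 4 (edgeR adjusted p = 0.228). Bst1 was higher in brain than in spleen CD11c cells (log2 3.64 ± 0.40, edgeR adjusted p = 1.20e-06). Nlrp3, the inflammasome sensor that responds to potassium efflux, rose in ischemic microglia from 354 ± 119 to 914 ± 179 CPM (log2 1.37 ± 0.23; edgeR adjusted p = 0.000313). Kcnk6 also rose in that comparison (log2 0.43 ± 0.11), a call lost with library totals. P2ry12, the ADP receptor whose signal is known to activate THIK1, fell in the same comparison (log2 -1.15 ± 0.21; edgeR adjusted p = 0.000515) while Kcnk13 was not called. Of 19 chloride and volume channel genes 17 were tested, with 4 higher and 4 lower, 8 higher and none lower, and 13 higher and 1 lower in the 3 comparisons (medians 0.02, 0.28 and 0.72). The first of these pairs of counts was near the shares over all genes. With library totals the counts were 5 and 2, 7 and 2, and 10 and 1. Lrrc8c, of the volume-regulated anion channel, stood at 71.1 ± 7.87 CPM in brain CD11c cells against 7.41 ± 0.631 in ischemic microglia (log2 3.26 ± 0.15; edgeR adjusted p = 1.25e-10), the same direction as Kcnn4. The other Lrrc8 genes tested were mixed in this comparison. Lrrc8a was lower (log2 -0.64 ± 0.18, edgeR adjusted p = 0.0101), a call lost without brain CD11c replicates 1 and 2 (edgeR adjusted p = 0.128). Lrrc8b was higher (log2 0.66, edgeR adjusted p = 0.0145) and Lrrc8d was not called. Without brain CD11c replicates 1 and 2 the medians against ischemic microglia turned sign for the NADPH oxidase (-0.08), calcium (-0.07), chloride (-0.20) and ADP-ribose (0.01) lists.

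The genes whose log2 CPM followed each channel gene most closely over the 16 libraries were sought among 10660 candidates, as a description, since the libraries share their 4 groups. Kcnk6 was closest to Rab27a (Pearson r = 0.988), a GTPase of vesicle secretion, and to Tlr7 (r = 0.983), an endosomal RNA sensor. Kcnn4 was closest to S100a11 (r = 0.988) and Dram1 (r = 0.988), and S100a11 stood at 1.27 and 1.45 CPM in the microglia groups against 83.9 CPM in brain CD11c cells. Kcna3 was closest to Angptl4 (r = 0.948) and to Lmnb1 (r = 0.947), which encodes the nuclear lamina protein lamin B1. Kcnk13 was closest to Retsat (r = 0.985) and C1rl (r = 0.984), and Kcnj2 to Pyroxd2 (r = 0.973) and Wsb1 (r = 0.967). Trpm2 had the weakest likeness of the 8, to Gbp5 (r = 0.889), an interferon-induced GTPase, and Bod1l (r = 0.852). Hvcn1 was closest to Osbpl2 (r = 0.931) and Trpv2 to Rps6ka4 (r = 0.940).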

How the data were processed

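RNA of sorted cells was sequenced from stranded polyadenylated libraries, per the labels' protocols. The authors deposited a table of whole-number read counts per gene for 16 libraries. Reads were checked with FastQC 0.11.5 and aligned with STAR 2.5.3a to GRCm38, per the submitters' processing notes. The sources used here do not give the counting program, its strand setting or the annotation. Gene names, exon lengths and coordinates are those of GENCODE M21 on GRCm38, which named 50376 of 50600 genes.

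Genes were kept by filterByExpr and tested with edgeR 4.0.16 under R 4.3.3 (robust quasi-likelihood F test) on all 16 libraries with a mean for each group, TMM scaling, two-sided, Benjamini-Hochberg adjusted over 16345 genes with a threshold of 0.05. The code of the test was run on simulated counts of 2 groups with a single setting of the spread for all genes. That setting is simpler than these data, so it does not vouch for the p-values given here. Depth was 31569304 to 48245164 counts per library, and p-values rest on 4 libraries per group. Alternatives were DESeq2 1.42.0, limma-voom (limma 3.58.1), library totals, no filter, only the 2 groups compared, each library left out in turn, and brain CD11c replicates 3 and 4 or 1 and 2 left out together. In each gene list, genes called and averaging 1 CPM or more in the group where they were higher, up to 2 per direction with the largest change, could be named. Where a list gene passed the filter through a single group, that group fixed the direction of its difference. Likeness used Pearson correlation of log2 CPM (prior count 2) over protein-coding genes with at least 5 CPM in a group. The channel genes and the lists were chosen with earlier results of these data known. No protein sequences were used here. The microglia markers were summed without 1 further gene of their list, which is not reported here.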

Additional observations from a re-analysis of the deposited data

Results flagged for a closer look

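In 1 of the 32 sets of 4 libraries (8 channel genes in 4 groups), a library lay far from the others by Dixon's test. Trpv2 in spleen CD11c replicate 4 stood at 80.2 CPM against 97.7 to 99.4 CPM in replicates 1 to 3. Chance sets a library apart in about 1 of 20 such groups.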

How the results depend on the processing

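The count of all genes called and the count of channel genes called stayed within 1.5 times the reported value in each of the 6 comparisons under all alternatives run. Of the recomputed log2 fold changes of channel genes, 627 kept direction and call, 26 lost and 7 gained the call, and 12 changed sign. Apart from Trpv2 in spleen CD11c cells against ischemic microglia (0.10 with library totals), the sign changes were in differences that had not been called. Kcnj2 in ischemic against control microglia was 0.00812 by limma-voom, 0.0132 without the filter and 0.00753 with only the 2 groups, and -0.190 to 0.145 with 1 library left out. Kcnn4 in brain against spleen CD11c cells was -0.0254 without brain CD11c replicates 1 and 2. Trpv2 in brain CD11c cells against control microglia was -0.00603 with library totals, -0.0631 without brain CD11c replicates 1 and 2, and -0.0110 to 0.0839 with 1 library left out. Trpm2 in spleen CD11c cells against ischemic microglia was 0.21 with library totals and -0.249 to 0.0775 with 1 library left out. The cause of these shifts was not tested. With library totals 6 of 32 group levels moved by more than the SD between libraries. No paired analysis was possible because groups of the same mouse line shared at most 1 number in their titles. Fits without 2 brain CD11c libraries rest on the 2 that are left.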
